A study of Mus musculus with 12 samples.

Results

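Undifferentiated mouse embryonic stem cells (mESCs) carrying a short hairpin RNA (shRNA) against Ctsl were compared with cells carrying a scramble shRNA, before any differentiation stimulus (Day 0). The comparison took 4 of the 12 RNA-seq libraries of the series, 2 labelled KD-Day0 (here shCTSL, genotype CTSL KD) and 2 labelled scr-Day0 (shSC), and these were fitted on their own. All 4 came from CCE-Nanog-GFP mESCs, a line with a GFP reporter for Nanog, which the study grew with LIF on gelatin, sorted for GFP and, after lentiviral transduction, selected with puromycin. The other 8 libraries were embryoid bodies after 2 and 4 days of retinoic acid without LIF. Of 24495 genes counted, 13195 passed a count filter and were tested, and all of these belong to the comparison. The study describes its RNA-seq pairs as biological replicates. The sources used here do not give which of its CTSL hairpins was sequenced or whether each arm was 1 transduced line, so a difference between shCTSL and shSC cannot be told apart from a difference between lines or hairpins.

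Cathepsin L is a cysteine protease of the lysosome, where it degrades proteins delivered by endocytosis and autophagy. A share of it also acts in the nucleus, and in differentiating stem cells it clips the tails of histones. mESCs kept with LIF hold a naive pluripotent state through a network of transcription factors that includes Pou5f1, Nanog, Sox2 and Esrrb, and they respond to Nodal, BMP, FGF and Wnt signals that they or the serum supply.

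The 4 libraries held between 11171111 and 19344654 counts, the least in shCTSL replicate 2, and between 16875 and 17904 genes with a count. Levels are given as normalized CPM, the counts scaled to a common library size. Differences are log2 fold changes of shCTSL against shSC, with a standard error (SE) and a Benjamini-Hochberg adjusted p from edgeR's quasi-likelihood test over all 13195 genes. A gene is called when the adjusted p is under 0.05 and the change is at least 1.5-fold. Replicates differed by more than counting noise, with a chi-square per degree of freedom of 2.62 between the shSC libraries and 5.48 between the shCTSL libraries. All 10 mESC markers passed the filter and none was called. Their changes were negative for 8 and positive for 2, with a median of −0.095, and Fbxo15 was lower at an adjusted p under 0.05. Their summed level was 6058 and 6126 CPM in shSC (replicates 1 and 2) and 5788 and 5657 in shCTSL. Pou5f1 had 1310 and 1311 CPM in shSC against 1274 and 1234 in shCTSL. Nanog, for whose reporter the cells were sorted, had 463 and 454.5 against 487 and 459.5. Of 12 fibroblast markers the summed level was 14.8 and 13.2 CPM in shSC and 12.3 and 11.5 in shCTSL, with Lum at 0 in every library.

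Ctsl itself was reduced. Control cells had 116 and 123 CPM of it (replicates 1 and 2) and shCTSL cells 33.4 and 32.0, so the groups were far apart. The fitted change was −1.87 (SE 0.0748, adjusted p = 4.51e-10), a 3.65-fold reduction. In bulk RNA a reduction in every cell and a loss from some of the cells cannot be told apart. Of the 24 cathepsins listed, 9 passed the filter, and Ctsl was the only one called in either direction, against 2.04% of all genes tested (269 of 13195). The median of the 9 was −0.13, and the median of all genes tested was 0.0013. Of the 18 cystatins and other cathepsin inhibitors, 4 passed and none was called; Cst3, the main secreted cystatin, had a change of −0.22 (adjusted p = 0.102) and Serpinb6a one of 0.16 (adjusted p = 0.199).

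Many genes of the lysosome share an E-box with the core CACGTG before or at the start site, which TFEB and related factors bind. The promoter of Ctsl is printed with those of the aspartic protease Ctsd, the membrane glycoprotein Lamp1 and the mannose 6-phosphate receptor Igf2r. These were chosen as examples that hold CACGTG, which most lysosomal promoters looked at here did not. The sequences are from RefSeq (GRCm38.p6, 250 bases before to 50 after the start site, 5′ to 3′ on the gene's strand). Each CACGTG, which reads the same on both strands, is in capitals. The promoters lie at chr13:64370471-64370770 (minus strand), chr7:142387778-142388077 (minus), chr8:13158911-13159210 (plus) and chr17:12769657-12769956 (minus).
Ctsl: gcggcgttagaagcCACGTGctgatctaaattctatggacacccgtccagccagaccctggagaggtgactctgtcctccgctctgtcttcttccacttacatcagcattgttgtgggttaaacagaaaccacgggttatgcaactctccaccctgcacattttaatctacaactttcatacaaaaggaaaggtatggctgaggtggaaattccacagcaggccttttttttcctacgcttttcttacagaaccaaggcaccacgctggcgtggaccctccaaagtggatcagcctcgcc
Ctsd: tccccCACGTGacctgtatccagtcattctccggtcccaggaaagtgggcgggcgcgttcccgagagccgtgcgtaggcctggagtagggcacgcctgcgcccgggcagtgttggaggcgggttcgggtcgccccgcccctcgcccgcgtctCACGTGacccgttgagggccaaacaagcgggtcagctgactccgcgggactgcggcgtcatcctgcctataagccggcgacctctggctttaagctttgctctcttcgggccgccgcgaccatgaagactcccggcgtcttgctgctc
Lamp1: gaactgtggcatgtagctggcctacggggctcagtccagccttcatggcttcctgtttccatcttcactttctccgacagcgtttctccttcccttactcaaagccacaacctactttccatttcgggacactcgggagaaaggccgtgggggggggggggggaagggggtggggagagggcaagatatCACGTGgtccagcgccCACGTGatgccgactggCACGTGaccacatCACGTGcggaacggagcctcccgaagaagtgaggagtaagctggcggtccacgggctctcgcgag
Igf2r: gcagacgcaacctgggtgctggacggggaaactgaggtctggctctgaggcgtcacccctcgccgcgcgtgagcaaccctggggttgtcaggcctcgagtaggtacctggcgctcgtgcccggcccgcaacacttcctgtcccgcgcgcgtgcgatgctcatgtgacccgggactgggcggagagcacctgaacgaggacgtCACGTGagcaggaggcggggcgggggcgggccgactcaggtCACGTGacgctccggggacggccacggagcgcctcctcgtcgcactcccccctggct

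The 6 letters occurred once in the Ctsl promoter, starting 236 bases before the start site, 2 times in those of Ctsd and Igf2r and 4 times in that of Lamp1. Of the 80 cathepsin, lysosomal hydrolase, lysosomal membrane and V-ATPase genes tested, 62 had a promoter in the table, and 22 of these (35.5%) held CACGTG, against 7.15% of all 32851 promoters and 12% of the 10146 tested genes with one. The median change was −0.032 for the 22 and −0.011 for the other 40. A match describes these letters only.

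Outside Ctsl the lysosome moved little. All 36 lysosomal hydrolases passed the filter and none was called, with a median of −0.0075 and a range of −0.50 to 0.23. Manba, a beta-mannosidase, had 127 and 130.3 CPM in shSC and 95.7 and 85.4 in shCTSL, the only hydrolase with an adjusted p under 0.05 (−0.50, adjusted p = 0.000466). Of 35 lysosomal membrane and V-ATPase genes none was called, and 6 had an adjusted p under 0.05 at any fold, 17.1% against 9.75% of all genes tested. Lamp1 (0.22), Lamp2 (0.34), Atp6ap1 (0.26) and Atp6v1g1 (0.37) were higher, and Cd68 (−0.36) and Igf2r (−0.28) were lower, all by less than 1.5-fold. Single libraries mattered at these sizes, and leaving 1 out took the adjusted p of Lamp1 up to 0.333 and that of Lamp2 up to 0.287. Of 32 autophagy genes and their regulators, 2 were called lower (6.25% against 1.55% of all genes). Rragd, a Rag GTPase that links lysosomal amino acids to mTORC1, had 27.8 and 26.2 CPM in shSC and 12.8 and 16.3 in shCTSL (−0.91, SE 0.118, adjusted p = 0.000221). Optn, an autophagy receptor, had 8.59 and 9.07 against 5.85 and 5.40 (−0.65, adjusted p = 0.0142), a call lost without shSC replicate 2 (adjusted p = 0.104). Below 1.5-fold, Tfeb (−0.48), Ulk1 (−0.34), Atg13 (−0.30), Atg2a (−0.23), Uvrag (−0.35) and Fnip2 (−0.42) were lower and Gabarap (0.32) and Gabarapl2 (0.33) higher at an adjusted p under 0.05. That makes 8 of 32 genes lower and 2 higher, but only Rragd and Tfeb kept an adjusted p under 0.05 whichever library was left out, and the list median was −0.053.

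Across all 13195 genes, 269 were called, 65 higher in shCTSL (0.493%) and 204 lower (1.55%), so 75.8% of the calls were reductions. At any fold, 1287 genes (9.75%) had an adjusted p under 0.05, of which 526 were higher (3.99%) and 761 lower (5.77%). Most differences were small, with quartiles of −0.15 and 0.13 over all genes. Calls were commoner among weakly expressed genes: 217 of the 269 lay below the median level, at up to 26.8 CPM, and 16 among the genes from 77.2 CPM upwards. The choice of method and of error estimate mattered greatly here. DESeq2 called 128 genes, 127 of them among the 269. By default DESeq2 can also leave weakly expressed genes without an adjusted p, and such a gene counts here as not called. How many of the calls that DESeq2 did not make come from this was not determined. A fit of all 12 libraries, which takes the spread from the embryoid bodies as well, called 6, all lower and all among the 269: Ctsl, Egr1, Lefty2, Zfp951, Nsg2 and D1Pas1. When each library was left out in turn, 97 of the 269 calls (16 higher, 81 lower) were kept in all 4 fits. The count rose to 408 without shCTSL replicate 2, and lay between 221 and 299 without any other library. Of the 269 calls, 105 were lost without shSC replicate 2, 96 without shCTSL replicate 1, 91 without shSC replicate 1 and 35 without shCTSL replicate 2. Differences under 1.5-fold were less stable. Of the 180 list members with an adjusted p under 0.05 that were not called, 34 kept it whichever library was left out, so the values given below for genes at any fold are mostly those of 1 set of libraries.

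**Figure D1:**
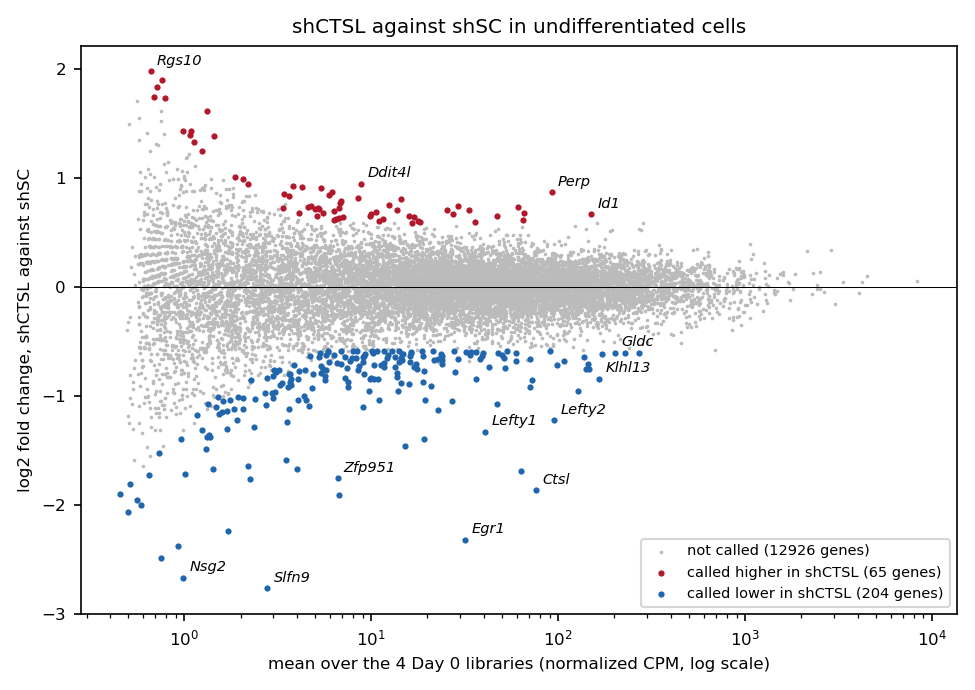
Each point is a gene, with its mean level over the 4 Day 0 libraries (normalized CPM, log axis) against the log2 fold change of shCTSL against shSC; red marks the 65 genes called higher, blue the 204 called lower and grey the rest. Ctsl, Egr1, Lefty1 and Lefty2 are among the genes farthest below 0 at their level, and the largest increases lie near 1 CPM.

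The differences also followed transcript length. Over the 12923 tested genes with an exonic length, the correlation across genes of the log2 fold change with log2 length was −0.14, and the ratio of the shCTSL replicates to each other had one of −0.27 and that of the shSC replicates one of 0.093 (genes are not independent replicates). The tenth of genes with the shortest exons (median 1080.5 bases) had a median change of 0.058, with 9 called higher and 19 lower. The tenth with the longest (median 9927 bases) had a median of −0.11, with 3 called higher and 37 lower. With offsets that remove this trend in each library, 297 genes were called, 78 higher and 219 lower, and 237 of the 269 were among them. The part of transcript length in single results was not tested, and values with these offsets are given below for some of the lists. For others they were as follows. The list median went from −0.20 to −0.13 for collagens and laminins, from −0.19 to −0.095 for RNA interference and from −0.14 to −0.078 for the formative genes. At an adjusted p under 0.05, 11 genes of cholesterol and fatty acid synthesis were lower with the offsets, against 7 without, and 6 genes of DNA repair were higher, against 1.

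Among the 15 called genes with the largest reductions were genes of several kinds. Slfn9, of the Schlafen family of growth and antiviral regulators, had 4.33 and 5.34 CPM in shSC and 0.636 and 0.810 in shCTSL, a 6.81-fold reduction (−2.77, SE 0.291, adjusted p = 3.1e-05). Egr1, an immediate early transcription factor induced by ERK, had 46.5 and 59.8 against 11.6 and 9.54, a 4.99-fold reduction (−2.32, SE 0.133, adjusted p = 2.69e-08). Both had groups far apart, and both calls held whichever library was left out. Zfp951, a zinc finger gene with close relatives, had 9.76 and 10.6 against 3.05 and 2.97 (−1.76, SE 0.169, adjusted p = 1.33e-05). Fmr1nb, an X-linked gene of testis and tumours, had 10.5 and 10.99 against 3.50 and 1.98 (−1.91, SE 0.196, adjusted p = 2.73e-05). Nsg2, a neuronal vesicle protein, had 1.938 and 1.503 against 0.318 and 0.180 (−2.67, adjusted p = 0.00199). These 3 calls also held without any 1 library, as did those of Tmem40 (−2.38, adjusted p = 0.00338), Rhox9 and Ctsl. The other 7, Hes3, Clca4b, Clcn1, Slfn5, Wdr20rt, Cldn5 and Efhc2, lay under 2 CPM in every library, and each lost its call when 1 library was left out, with adjusted p up to 0.253, 0.403, 0.159, 0.278, 0.25, 0.323 and 0.226. Each library ended some of these calls, shCTSL replicate 1 and shSC replicate 1 those of all 7, shSC replicate 2 those of 6 and shCTSL replicate 2 those of 3. DESeq2 called 4 of the 15, Ctsl, Egr1, Zfp951 and Fmr1nb.

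The largest increases were in genes at low level. The 15 called genes with the highest change ran from 0.94 to 1.98, and their median mean level was 1.08 CPM. Rgs10, a regulator of G-protein signalling, led with 0.388 and 0.155 CPM in shSC and 1.02 and 1.08 in shCTSL (1.98, SE 0.507, adjusted p = 0.0227). Gbp2b, a guanylate-binding protein, followed at 1.89 (adjusted p = 0.0255), then the phosphodiesterase Pde10a at 1.83 (adjusted p = 0.0253). Ddit4l, an inhibitor of mTORC1 signalling, was the only one of the 15 called by DESeq2 and the only one called whichever library was left out. It had 5.43 and 6.58 CPM against 12.1 and 11.2 (0.95, SE 0.146, adjusted p = 0.000901). The other 14, Rgs10, Gbp2b, Pde10a, Cks1brt, Wnt10a, Nipal4, St6gal2, Lpxn, Gsx1, Csf1, Zxdb, Tmem229a, Fhl4 and Adam8, each lost the call without at least 1 library, with adjusted p up to 0.542 (Csf1, without shCTSL replicate 1). Of these calls 11 were lost without shSC replicate 1, 11 without shSC replicate 2, 10 without shCTSL replicate 1 and 2 without shCTSL replicate 2. The ETS factor Erg, which the study lists among its Day 0 genes, did not pass the filter, at 0.0646 and 0.259 CPM in shSC and 0.127 and 0.0900 in shCTSL.

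The 8 called genes with the highest level lay between 144 and 272 CPM on average, and 7 of them were reduced. Klhl13, a substrate adaptor of a cullin ubiquitin ligase on the X chromosome, had 217 and 209 CPM in shSC and 114 and 124 in shCTSL (−0.84, SE 0.0668, adjusted p = 1.51e-06). Grb10, an imprinted adaptor of growth factor receptors, had 181 and 177 against 108 and 111 (−0.71, adjusted p = 6.47e-06), and Map1b, which binds microtubules, 198 and 169.7 against 101 and 117 (−0.75, adjusted p = 5.42e-05). These 3 calls held without any 1 library. Gldc, the glycine decarboxylase of one-carbon metabolism, had 238 and 248 against 156 and 163 (−0.60, adjusted p = 2.95e-05). Rest, the repressor of neuronal genes, had 328 and 328 against 194 and 238 (−0.61, adjusted p = 0.000212), and Trim71, an RNA-binding ubiquitin ligase of stem cells, 209.7 and 203 against 125 and 146 (−0.61, adjusted p = 0.000116). Both of the latter lie near the 1.5-fold limit and fell short of it without shCTSL replicate 1 (−0.46 and −0.50), and Gldc did without shCTSL replicate 1 or shSC replicate 2, at −0.57 at the smallest. Rps2 is taken with the ribosomal proteins and Id1, the 1 increase among the 8, with the BMP targets.

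**Figure D2:**
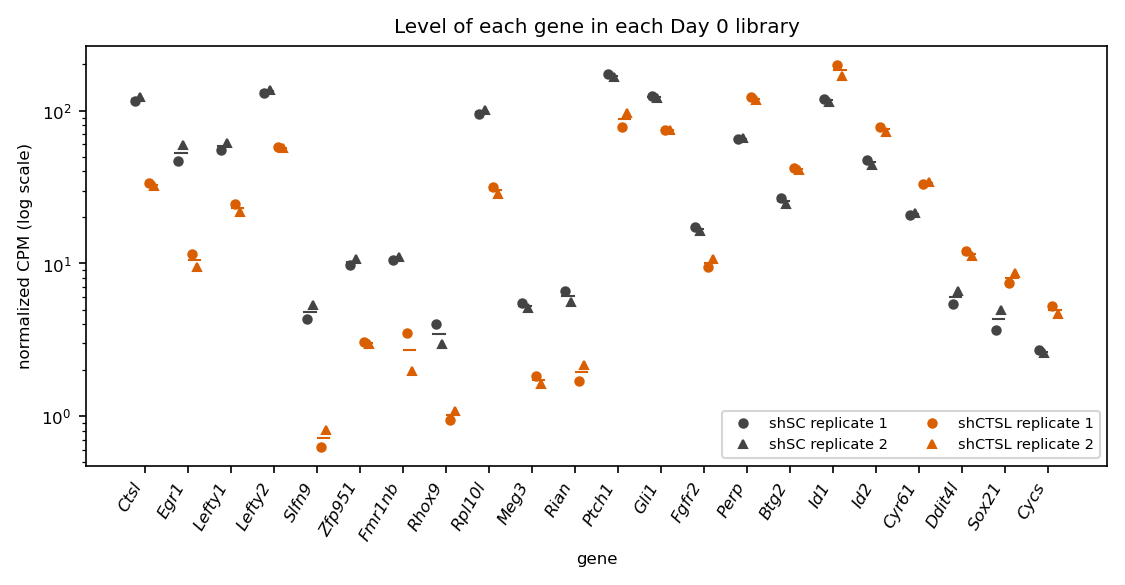
Normalized CPM (log axis) of 22 genes in each of the 4 Day 0 libraries; dark grey marks shSC and orange shCTSL, circles replicate 1 and triangles replicate 2, and lines the mean of the 2 replicates. The genes were picked from those called, a choice that favours groups apart, so their separation is no added support. For each gene shown the shSC and shCTSL libraries do not overlap, as with Ctsl at 116 and 123 against 33.4 and 32.0.

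Changes in the naive pluripotency network were small, and 25 of 35 members had negative ones. All 35 of its listed members passed the filter, 1 was called, and 6 had an adjusted p under 0.05, all of them lower (17.1% against 5.77% of all genes lower). The list median was −0.095. With length offsets 11 members were lower at that threshold and none higher, against 995 lower and 865 higher among all 13195 genes. The called gene was Esrp1, an epithelial splicing factor, with 33.7 and 37.4 CPM against 21.0 and 20.2 (−0.79, SE 0.0987, adjusted p = 0.000176). The transcription factors Klf2 (346 and 345 against 274 and 248 CPM, −0.40), Nr0b1 (−0.35) and Tfcp2l1 (−0.24) were lower by less than 1.5-fold, as were Tet2 (−0.34), which oxidises methylated cytosine, and Fbxo15 (−0.27). Of the 21 LIF and STAT3 genes none was called, and Pim1 (−0.42), Tfcp2l1 and Junb (−0.38) were lower at an adjusted p under 0.05.

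Genes of the formative and primed states moved both ways. Of 20 tested, Fst, an inhibitor of activin, was called higher (5.49 and 4.66 against 9.28 and 7.74 CPM, 0.77, adjusted p = 0.00859) and the zinc finger gene Zic5 lower (3.94 and 4.51 against 2.22 and 2.34, −0.90, adjusted p = 0.0182). Neither call held without shSC replicate 2 (adjusted p = 0.0717 and 0.159). At any fold, Otx2 (0.42) and Dusp6 (0.22) were also higher, and the de novo methyltransferase Dnmt3b (−0.38), Zic2 (−0.55), Etv5 (−0.20) and Grhl2 (−0.35) also lower. Lineage genes gave no common direction. None of the 16 primitive streak and mesoderm genes had an adjusted p under 0.05, and none of 22 endoderm genes was called, although Col4a2 (0.51), Col4a1 (0.32), Krt8 (0.41) and Krt18 (0.46) were higher and Apoe (−0.43) lower at any fold. Of 20 neural and ectoderm genes, Sox21 was called higher, with 3.68 and 4.98 CPM in shSC and 7.499 and 8.64 in shCTSL (0.87, SE 0.179, adjusted p = 0.00687), and Hes3 lower. Of 15 trophectoderm genes, Id2 and Wnt6 were called higher and Tfap2c lower (47.0 and 46.8 against 31.3 and 27.5, −0.66, adjusted p = 0.000283, and −0.58 without shCTSL replicate 2). The called shares were 10% in the formative and in the neural list and 20% in the trophectoderm list, against 2.04% of all genes tested. The 2-cell-like list was nearly silent, with 3 of 31 members tested, and 5 of 42 Hox genes were tested. None was called in either list.

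In the Nodal and BMP list, 5 of 40 tested genes were called (12.5% against 2.04% of all genes). Lefty1 and Lefty2, secreted antagonists of Nodal and direct targets of Nodal signalling, were reduced. Lefty1 had 55.4 and 61.0 CPM in shSC and 24.5 and 21.6 in shCTSL, a 2.51-fold reduction (−1.33, SE 0.0926, adjusted p = 4.17e-07). Lefty2 had 130 and 137 against 57.6 and 56.7, a 2.33-fold reduction (−1.22, SE 0.0695, adjusted p = 2.69e-08). The groups of both genes were well apart, both calls held whichever library was left out, and DESeq2 called both. Their genes lie close to each other on chromosome 1 (Lefty2 at 182823239 to 182829234 and Lefty1 at 182865153 to 182868531, mm9). The ligand Nodal itself, its coreceptor Tdgf1 and the factors Foxh1, Smad2, Smad3 and Smad4 were not called. Inhbb (−0.33), the receptor Acvr2b (−0.33) and the inhibitory Smad7 (−0.44) were lower at any fold.

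The BMP targets Id1 and Id2, dominant-negative helix-loop-helix factors, were higher. Id1 had 118 and 114 CPM in shSC and 199.7 and 169 in shCTSL (0.67, SE 0.0761, adjusted p = 6.9e-05), and Id2 47.6 and 43.9 against 78.6 and 72.7 (0.73, SE 0.0769, adjusted p = 3.1e-05). The call of Id2 held in every fit that left out 1 library; that of Id1 fell below 1.5-fold without shCTSL replicate 1 (0.54). The BMP receptor Bmpr1a was higher by 0.24 (adjusted p = 0.034), and Bmp4 was not called.

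Of 27 FGF and ERK feedback genes tested, 4 were called, all lower (14.8% against 1.55% of all genes called lower). At any fold 8 were lower and 1 higher (33.3% against 9.75% of all genes in either direction). The receptor Fgfr2 had 17.3 and 16.3 CPM in shSC and 9.53 and 10.7 in shCTSL (−0.74, SE 0.121, adjusted p = 0.00146). Dusp4, a phosphatase that ERK induces and that turns ERK off, had 20.3 and 22.8 against 13.2 and 13.2 (−0.71, adjusted p = 0.00114). Shisa2, which holds back the maturation of FGF and Wnt receptors, had 13.1 and 12.1 against 6.48 and 7.56 (−0.85, adjusted p = 0.00144). The ligand Fgf18 was called lower as well (−0.76, adjusted p = 0.0153), a call lost without shSC replicate 2 (adjusted p = 0.233). The feedback gene Dusp6 went the other way (118 and 121 against 142 and 136, 0.22, adjusted p = 0.0463), and the ligand Fgf4 was not called. The list median was −0.18, and −0.13 with length offsets.

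Immediate early genes split. Egr1 was the only called reduction among 22 tested, and Btg2 and Cyr61 were called increases. Together they are 13.6% of the list, against 2.04% of all genes tested. Btg2, an antiproliferative gene that p53 also induces, had 26.7 and 24.3 CPM against 42.1 and 40.6 (0.70, SE 0.0908, adjusted p = 0.000215). Cyr61, a matricellular YAP and SRF target, had 20.7 and 21.5 against 32.9 and 34.2 (0.67, SE 0.0945, adjusted p = 0.00046), and Ctgf was higher by 0.34 (adjusted p = 0.00612). All 3 calls held without any 1 library and in DESeq2. Junb was lower (−0.38, adjusted p = 0.0158). Fos (−0.69, SE 0.241) and Fosb (−1.01, SE 0.472) also had negative changes but were not called, and Klf6 was higher at any fold (0.26). The list had 11 positive and 11 negative changes, with a median of 0.0074.

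**Figure D3:**
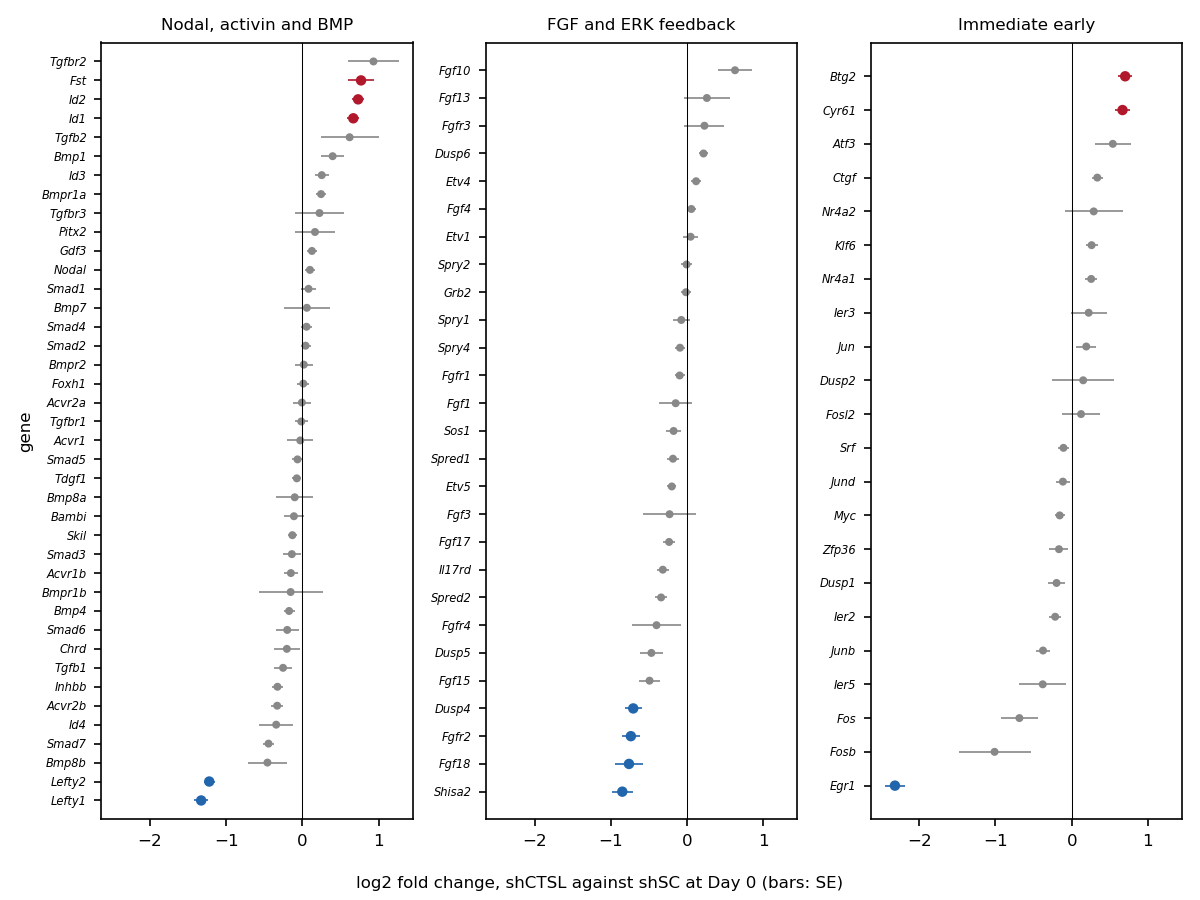
Log2 fold changes at Day 0 with SE bars for every tested gene of 3 pathway lists, each panel ordered by its value; red and blue mark called genes and grey the rest. The Lefty genes (−1.33 and −1.22) and Egr1 (−2.32) lie below the other members of their lists. Nodal lies near 0 (0.099), and the receptors run from −0.74 (Fgfr2) to 0.93 (Tgfbr2, not called, SE 0.33).

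The Hedgehog list was added after the calls were seen, because Ptch1 and Gli1 were among them. Both encode pathway components that Hedgehog signalling itself induces, the receptor and an activator. Ptch1 had 172 and 166 CPM in shSC and 78.4 and 96.5 in shCTSL (−0.96, SE 0.0832, adjusted p = 4.42e-06). Gli1 had 124 and 121 against 74.4 and 74.5 (−0.72, SE 0.0664, adjusted p = 8.69e-06). Gli2 was lower by less than 1.5-fold (−0.41). Both calls held without any 1 library. Since the list was chosen for these genes, its share is not evidence of its own.

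Of 44 Wnt genes, 4 were called, but none held in all 4 fits that left out 1 library. Wnt6 (2.71 and 2.49 against 4.39 and 4.95 CPM, 0.84, adjusted p = 0.0195), Wnt10a (0.452 and 0.311 against 1.59 and 0.810, 1.73, adjusted p = 0.0299) and Wls, which carries Wnt proteins to the surface (0.67, adjusted p = 0.0274), were higher. The Wnt target Sp5 was lower (−1.14, adjusted p = 0.0409). These 4 calls are 9.09% of the tested list, against 2.04% of all genes tested. Without shSC replicate 2 all 4 calls were lost, with adjusted p between 0.131 (Wnt6) and 0.381 (Sp5); Wnt10a was also lost without shSC replicate 1 or shCTSL replicate 1, and Sp5 without the latter. At any fold Lrp5 (−0.41), Tcf7 (−0.38), Tcf7l1 (−0.30), Lgr4 (−0.27) and Notum (−0.52) were lower. None of 24 Notch genes was called, and Notch1 (65.5 and 64.0 against 44.0 and 48.4 CPM, −0.49), Notch2 (−0.37), Notch4 (−0.50) and Dtx1 (−0.57) were lower and Rbpj (0.30) higher at any fold.

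The germline genes that were called were all reduced. Of 72 listed, 36 were tested, and 5 were called, all lower (13.9% against 1.55% of all genes called lower). The list leaned the other way, with a median of 0.057 and 22 positive against 14 negative changes. The X-linked homeobox genes Rhox6 and Rhox9, of a cluster expressed in reproductive tissue, placenta and germ cells, had 3.17 and 3.42 against 0.699 and 1.53 CPM (−1.65, adjusted p = 0.00392) and 4.01 and 2.95 against 0.953 and 1.08 (−1.76, adjusted p = 0.00171). Together with Fmr1nb these held without any 1 library. Piwil4, a piRNA-binding protein (−1.38, adjusted p = 0.0214), and the meiotic cohesin Smc1b (−0.59, adjusted p = 0.00845) were lost without shCTSL replicate 1 or shSC replicate 2, and Piwil4 also without shSC replicate 1 (adjusted p up to 0.174 and 0.0884). Stag3 (−0.43) and Hsf2bp (−0.52), both meiotic, were lower at any fold.

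Among the calls were testis-expressed copies of widely used genes, gathered in a list made after the calls were seen, of which 13 were tested. Rpl10l and Rpl39l, copies of ribosomal protein genes used in spermatogenesis, were reduced. Rpl10l had 94.2 and 100.2 CPM in shSC and 31.6 and 28.4 in shCTSL (−1.69, SE 0.0798, adjusted p = 2.91e-09), and Rpl39l 27.3 and 28.9 against 12.5 and 8.28 (−1.40, SE 0.139, adjusted p = 1.92e-05). D1Pas1, a copy of the X-linked helicase Ddx3x, had 63.4 and 64.6 against 31.0 and 29.6 (−1.08, SE 0.0791, adjusted p = 7.52e-07). These 3 calls held without any 1 library and in DESeq2. Wdr20rt was called lower and Cks1brt and Zxdb higher, all near 1 CPM. Such copies can share reads with their parent genes, so their levels are less certain than those of single genes.

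Of 10 Schlafen genes 3 were tested, and all had negative changes. Slfn9 and its neighbour Slfn5 (0.775 and 0.674 against 0.191 and 0.180 CPM, −1.90, adjusted p = 0.0487) were called, the latter in none of the 4 fits that left out a library. The pseudogene Slfn10-ps had 0.646 and 0.933 against 0.127 and 0.450 and was not called. In the list of zinc finger genes from Zfp900 to Zfp999, 6.25% of tested members were called, against 2.04% of all genes tested. Of 48 tested zinc finger genes from Zfp900 to Zfp999, Zfp951 and Zfp992 (−0.59, adjusted p = 0.00492) were called lower and Zfp943 higher (0.64, adjusted p = 0.0224), and only Zfp951 held without any 1 library. Zfp992 was at −0.43 without shCTSL replicate 1 and Zfp943 at 0.49 without shCTSL replicate 2, and both calls were also lost without shSC replicate 2. Of 26 interferon response genes, Oas1a was called lower (2.003 and 2.07 against 1.02 and 0.990 CPM, −1.02, adjusted p = 0.0479) and lost the call in each fit that left out a library. Bst2 (−0.44) and Ifitm1 (−0.35) were lower at any fold.

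Of 43 imprinted genes tested, 4 were called lower and 1 higher (11.6% against 2.04% of all genes). The maternally expressed noncoding RNAs Meg3 and Rian, neighbours on chromosome 12 (110779211 to 110809936 and 110842155 to 110899919, mm9), were reduced together. Meg3 had 5.49 and 5.08 CPM in shSC and 1.84 and 1.62 in shCTSL (−1.59, SE 0.223, adjusted p = 0.000428), and Rian 6.65 and 5.60 against 1.72 and 2.16 (−1.67, SE 0.221, adjusted p = 0.000258). Both calls held without any 1 library, and DESeq2 made neither. Grb10 and the zinc finger gene Peg3 (64.1 and 60.6 against 36.4 and 43.6, −0.65, adjusted p = 0.000311) were also lower, Peg3 by less than 1.5-fold with length offsets and without shCTSL replicate 1 (−0.51). Plagl1, a zinc finger regulator of growth, was higher (4.59 and 4.04 against 8.64 and 6.48, 0.84, adjusted p = 0.00906), but not without shCTSL replicate 1 (adjusted p = 0.0683). At any fold Kcnq1ot1 (−0.53), Impact (−0.42), Mest (−0.29) and Igf2r (−0.28) were lower. Other long noncoding RNAs went both ways: of 36 tested, Platr14, a pluripotency-associated transcript, was called lower with Meg3 and Rian (−0.68, adjusted p = 0.00314, and 0.0533 without shSC replicate 2), Lncenc1 was lower by less than 1.5-fold (364 and 335 against 238 and 253 CPM, −0.51), and Malat1 was higher (0.33).

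Targets of p53 were among the genes that rose. Of 39 tested, 7 were higher and 2 lower at an adjusted p under 0.05 (23.1% against 9.75%), and the list median was 0.12 (0.11 with length offsets). Perp, a desmosomal p53 target, had 64.8 and 66.0 CPM in shSC and 122 and 117 in shCTSL (0.87, SE 0.0677, adjusted p = 1.4e-06), and it was called without any 1 library and in DESeq2. Btg2 was the other called increase. Ccng1 (0.53), Plk2 (0.51), Trp53inp1 (0.37), Ei24 (0.32) and Ckap2 (0.25) were higher below 1.5-fold. Pltp, a phospholipid transfer protein (−0.61, adjusted p = 0.000511; −0.53 without shSC replicate 1), was called lower, and Gdf15 was lower at any fold (−0.57).

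Stress and metabolic programmes gave few calls. None of 41 genes of the integrated and unfolded protein responses was called, with Chac1 (−0.38) and Slc7a5 (−0.30) lower at any fold, nor any of 42 hypoxia and glycolysis genes, among which Pfkp (156 and 168 against 111 and 106 CPM, −0.58, adjusted p = 8.46e-05) lay just short of 1.5-fold and Slc2a3 (0.30) was higher. None of 33 metallothionein and oxidative stress genes was called, although Mt2 (237 and 217 against 353 and 327, 0.58, adjusted p = 6.55e-05) also lay just short, and Prdx1 (0.39), Prdx3 (0.31) and Mt1 (0.25) were higher and Gstp1 (−0.38) and Txnrd1 (−0.21) lower. Of the 8 at that threshold only Mt2 and Prdx1 kept it whichever library was left out. Of 35 genes of cholesterol and fatty acid synthesis none was called, and 7 were lower at any fold against 2 higher. Fasn had 959 and 952 CPM in shSC and 739.7 and 803 in shCTSL (−0.31, adjusted p = 0.00458), with Acaca (−0.35), Scd1 (−0.31), Scd2 (−0.30), Insig1 (−0.30), Srebf2 (−0.26) and Acly (−0.22) in the same direction and Msmo1 (0.27) and Elovl6 (0.24) opposite. None of these 9 kept an adjusted p under 0.05 in all 4 fits that left out a library.

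Of 75 nuclear genes of oxidative phosphorylation, 9 were higher and none lower at an adjusted p under 0.05. That is 12%, against 9.75% of all genes tested (3.99% higher and 5.77% lower). Of the 9, 1 was called, the electron carrier Cycs (2.71 and 2.59 against 5.28 and 4.68 CPM, 0.92, adjusted p = 0.01). The call of Cycs was lost without shSC replicate 2, and processed pseudogenes can share its reads. The others included Uqcrb (0.41), Ndufv2 (0.33) and Uqcrh (0.32), and none of the 9 kept that threshold in all 4 fits that left out a library. Of 71 cytosolic ribosomal protein genes, 15 were higher and 3 lower at any fold (25.4% against 9.75% of all genes). Among the higher were Rps15a (0.51), Rpl15 (0.44), Rpl27a (0.44) and Rpl14 (0.39). Rpl37a was called higher (0.67, adjusted p = 0.000357) and Rps2 (299 and 248 against 150.4 and 209 CPM, −0.61, adjusted p = 0.00341) lower, and both fell short of 1.5-fold without shSC replicate 1 or without shCTSL replicate 1, at 0.55 and −0.39 at the smallest. Both lists consist of short transcripts (median exonic lengths of 1334 and 1449 bases against 3708 over tested genes). With length offsets their medians went from 0.058 to 0.014 and from 0.10 to 0.053, and 9 and 16 members were higher against 1 and 6 lower. Of 44 proteasome subunits, 2, Psmc6 (0.33) and Psma5 (0.25), were higher at any fold.

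Cell cycle genes showed small changes, with none of 32 called. Ccnb1 (0.28), Cdk1 (0.23), Ccna2 (0.19) and Rb1 (0.46) were higher, and Cdk6 (78.9 and 77.3 against 53.5 and 57.5 CPM, −0.49, adjusted p = 0.000556), Ccnd2 (−0.43) and Mycn (−0.28) lower, at an adjusted p under 0.05.

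Few chromatin genes were called. Of 29 BAF and PBAF remodelling subunits, Bcl11a was called higher (5.36 and 4.56 against 9.66 and 5.85 CPM, 0.70, adjusted p = 0.0431), and its change was 0.25 without shCTSL replicate 1; the call was also lost without shSC replicate 2. Arid1b (67.8 and 68.2 against 46.5 and 47.8, −0.53), Gltscr1 (−0.40), Gltscr1l (−0.38) and Arid1a (−0.24) were lower and Smarce1 (0.25) higher at any fold. Of 21 clustered histone genes tested none was called, and Hist1h2bc was higher (0.53, adjusted p = 0.0116); poly(A) libraries capture these transcripts poorly. Of 12 replacement histone and H2A-related genes none was called either, and 5 had an adjusted p under 0.05 (41.7% against 9.75% of all genes). H2afz, which encodes H2A.Z, had 43.5 and 45.3 CPM against 63.1 and 54.2 (0.41, adjusted p = 0.00695), while the macroH2A genes H2afy (−0.24) and H2afy2 (−0.37) and the linker histones H1fx (−0.45) and H1f0 (−0.33) were lower. Like other values under 1.5-fold, these depend on the single libraries. With 1 library left out, the change of H2afz ran from 0.29 to 0.51 and that of H1fx from −0.64 to −0.31. None of 33 acetyltransferases and deacetylases was called; the acetyltransferase Crebbp had 91.4 and 79.4 against 52.9 and 64.5 (−0.55, adjusted p = 0.00174), with Hdac4 (−0.38) and Kat6b (−0.27) lower and Sirt5 (0.54) and Hdac2 (0.23) higher. None of 33 Polycomb genes was called (Rnf2 0.28, Jarid2 −0.28, Phc1 −0.27), nor any of 16 DNA methylation enzymes, 12 genes of RNA interference (Ago2 −0.36, Tnrc6b −0.32) or 35 genes of repair and retrotransposon control (Trp53bp1 −0.34, Parp1 −0.28, Chek1 0.23).

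**Figure D4:**
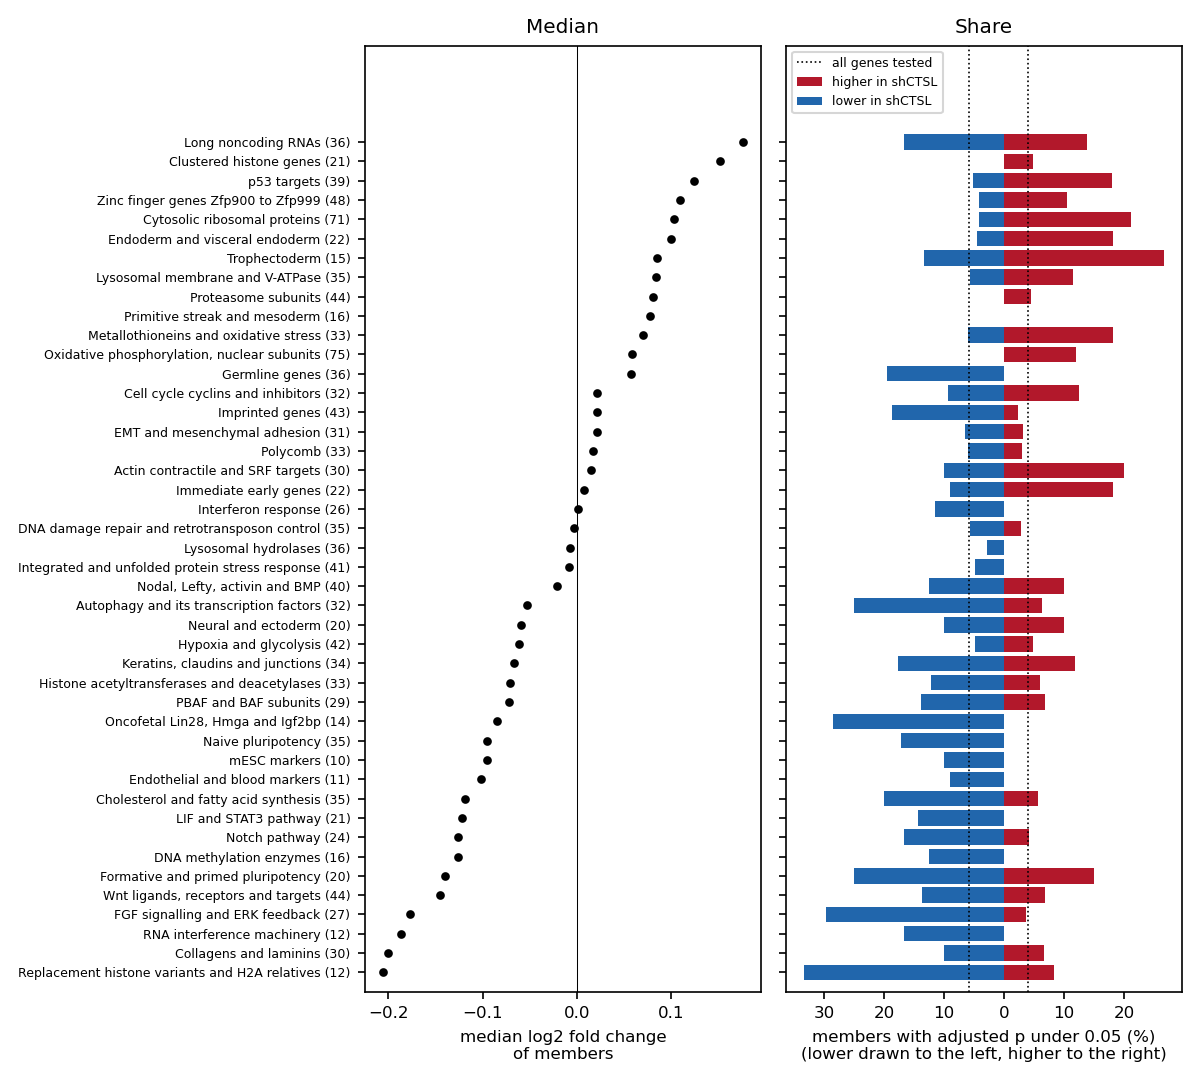
For each list with at least 10 tested genes (number in brackets), the left panel gives the median log2 fold change of its tested members and the right panel the percentage with an adjusted p under 0.05, lower to the left in blue and higher to the right in red; dotted lines mark all genes tested (3.99% higher, 5.77% lower). The p53 list (median 0.12) leans to higher values and the FGF list (median −0.18) to lower ones. Neither has the most extreme median, which are those of the replacement histones (−0.21) and the long noncoding RNAs (0.18).

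Adhesion and matrix genes were mixed. Of 34 keratin, claudin and junction genes, Perp was called higher and the endothelial claudin Cldn5 (0.840 and 1.14 against 0.254 and 0.360 CPM) and the scaffold Tjp3 (−0.59, adjusted p = 0.0107, and −0.46 without shCTSL replicate 2) lower. These calls are 8.82% of the 34, against 2.04% of all genes tested. Of 30 actin contractile genes, the thin-filament regulator Cald1 was called higher (52.8 and 50.2 against 72.6 and 84.7, 0.61, adjusted p = 0.000295), at 0.50 without shCTSL replicate 2 and 0.58 without shSC replicate 2. Of 30 collagens and laminins, Col13a1, a transmembrane collagen, was called lower (5.56 and 5.65 against 3.62 and 2.88, −0.76, adjusted p = 0.0211), not so without either shSC library (adjusted p up to 0.0942). None of 31 genes of the epithelial to mesenchymal transition was called, and fibronectin (Fn1), with 845 and 808 against 521 and 581 CPM, lay just short of 1.5-fold (−0.58, adjusted p = 4.69e-05). Of 14 oncofetal genes, Igf2bp2, an RNA-binding protein, was called lower in every such fit (86.2 and 86.5 against 54.0 and 55.5, −0.66, adjusted p = 3.1e-05) together with Trim71, and no Lin28 or Hmga gene was called.

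Some of the called reductions were in genes known from endothelium. For this reason 28 such genes beyond the marker list were gathered after the calls were seen. Of 22 tested, 9 were called, all lower: Nos3 (10.8 and 15.0 against 7.31 and 5.94 CPM, −0.96), Elmo1 (30.1 and 32.4 against 14.3 and 14.2, −1.13), Arhgap30 (11.8 and 12.8 against 6.29 and 5.04, −1.10), Nrp2 (48.7 and 44.3 against 22.2 and 29.9, −0.85), Vwf (4.07 and 5.75 against 2.10 and 2.52, −1.13), Sox18 (−1.12), Ccm2l (−1.08), Fgd5 (−0.63) and Cldn5 (−1.73). The first 4 held without any 1 library. Of the others, Ccm2l was lost without shSC replicate 1, Vwf without shSC replicate 2, Sox18 and Fgd5 without shSC replicate 2 or shCTSL replicate 1, and Cldn5 without any of these 3. Among the 22 tested genes 8 had positive changes, up to 0.61. Of the 16 endothelial and blood markers listed at the outset, 11 were tested and none was called. The summed level of the 16 was 100.3 and 98.1 CPM in shSC and 81.7 and 77.7 in shCTSL, most of it Pecam1, which mESCs express (69.9 and 70.7 against 53.1 and 50.1, −0.44, adjusted p = 0.00146). Cdh5 was between 0.318 and 0.518 CPM in every library, and Emcn, Hbb-bh1 and Hba-x were at 0 in all 4. As the 9 genes were picked for their change, their number supports nothing further.

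The calls were spread over the chromosomes, whose medians ran from −0.027 to 0.058 over the autosomes and X. Some fell beside each other. Of the 200 genes called lower with a position, 20 (10%) had an adjacent tested gene also called lower, against 3.07% of all 12923 tested genes with a position, and of the 65 called higher 4 (6.15%) did, against 0.998%. The pairs included Wnt6 and Wnt10a, 6196 bases apart on chromosome 1, Slfn5 and Slfn9, 16687 bases apart on chromosome 11, Meg3 and Rian, 32218 bases apart on chromosome 12, and Rhox6 and Rhox9, 69239 bases apart on the X. Other pairs were not of 1 family, such as Gpr153 and Hes3, 634 bases apart on chromosome 4. Msi1 and Pla2g1b, 10563 bases apart on chromosome 5, were another. Adjacent means next to each other among tested genes, and Wdr20rt and Rpl10l lay 1054926 bases apart on chromosome 12. Neighbouring relatives can share reads.

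The differences at Day 0 were then followed into the embryoid bodies, whose libraries are separate samples. At Day 4, fitted on its own 4 libraries, 361 of 14735 genes were called higher in shCTSL (2.45%) and 350 lower (2.38%). Of the 65 genes higher at Day 0, 61 were tested at Day 4, 51 of these had a positive change (83.6% against 51.2% of all genes), and 9 were called higher again, among them Id1 (0.87), Perp (0.79), Btg2 (0.69), Cyr61 (0.60) and Nipal4 (1.02). Of the 204 lower, 189 were tested, 131 had a negative change (69.3% against 48.8%), and 21 were called lower again. These included Ctsl (−0.81), Zfp951 (−1.01), Ptch1 (−0.78), Grb10 (−1.03), Peg3 (−0.86), Meg3 (−2.09) and Rian (−2.59). At Day 2, 44 of 63 genes of the first set had a positive change (69.8% against 52% of all genes) and 152 of 197 of the second a negative one (77.2% against 48%). No gene of 15000 was called at Day 2 by edgeR, with 494 at an unadjusted p under 0.05, and DESeq2 called 3. The shCTSL libraries of Day 2 differed widely from each other. The ribosomal RNA Rn45s took 3.43% and 0.553% of their counts (replicates 1 and 2), against 0.17% and 0.726% in shSC. Summed mESC markers, scaled over all 12 libraries, were 1519 and 1044 CPM against 1147 and 1158. The lack of calls at Day 2 therefore does not show that the lines were alike. The reductions of Ctsl and Zfp951 were smaller at Day 4 than at Day 0 in fitted value, and those of Meg3 and Rian larger.

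Whether a difference itself changed was tested in a fit of the 8 Day 0 and Day 4 libraries, in which 149 of 15079 genes were called (0.988%). Of the 65 genes higher at Day 0, 4 were among them, and of the 204 lower, 31. These genes were chosen for their Day 0 differences and the test uses the same Day 0 libraries, so an excess of such calls towards 0 follows from the choice and is no result. Lefty1 went from −1.33 at Day 0 to 0.50 at Day 4, and Lefty2 from −1.22 to 0.30. Egr1 went from −2.32 to −0.10, and Rpl10l from −1.69 to −0.22. Plagl1 and Pde10a changed sign the other way, from 0.84 to −0.93 and from 1.83 to −0.78. Ctsl was reduced at both times, but by less at Day 4, a difference of 1.06 (SE 0.115, adjusted p = 0.00117). Leaving out single libraries moved the count of 149 to between 8 (without shSC Day 0 replicate 2) and 498 (without shCTSL Day 4 replicate 1), so the number is poorly determined.

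**Figure D5:**
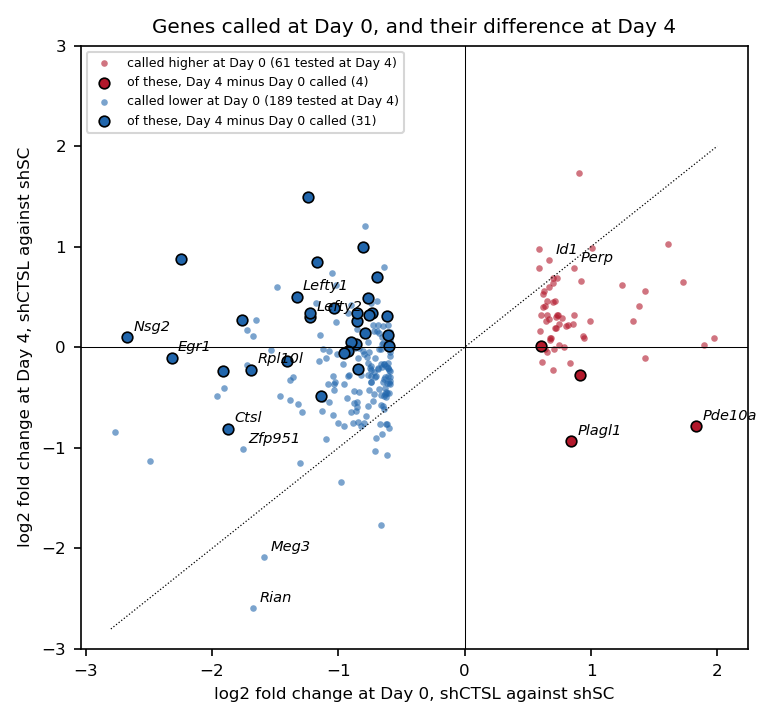
Log2 fold change of shCTSL against shSC at Day 0 and at Day 4 for the genes called at Day 0 and tested at Day 4 (61 higher in red, 189 lower in blue); outlined points were called in the test of Day 4 minus Day 0, and the dotted line marks equal values. Meg3 and Rian lie below that line, while Lefty1, Lefty2, Egr1 and Nsg2 lie near or above 0 at Day 4.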

How the data were processed

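Poly(A) RNA was sequenced from 12 libraries, 2 for each of shSC and shCTSL at Day 0, Day 2 and Day 4. Per the labels and the study's methods, the authors used FastQC 0.11.2, aligned reads to mm9 with STAR 2.3.0e and dropped mitochondrial and low-quality alignments with SAMtools 0.1.19. RefSeq genes were then counted with featureCounts 1.6.2, and the deposited values are these raw counts. Whether counting used strand is not stated, so overlapping antisense genes are uncertain, as are families whose reads map to several copies.

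Here the 4 Day 0 libraries were filtered (filterByExpr, minimum count of 10), scaled with TMM and fitted with edgeR 4.0.16 (R 4.3.3), using its quasi-likelihood test without covariates and Benjamini-Hochberg adjustment over all genes tested. Day 4, and the difference between days, were fitted in the same way. The Day 0 fit has 2 residual degrees of freedom and a prior of 13.9, so its p-values rest largely on the spread shared across genes. The median SE ran from 0.288 in the least expressed genes (0.455 to 5.86 CPM) to 0.0661 in the most expressed (77.2 to 8330 CPM).

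Groups came from the sample titles. Genes were named by rule: Ctsl, those the study lists for Day 0, the 15 called genes at either extreme of log2 fold change with groups apart (no predicted loci or Rik genes), the 8 called genes with the highest mean CPM, and the called members of each list or, where it had none, its 2 members with the smallest p. List members at an adjusted p under 0.05, Hedgehog, testis-copy, endothelial and neighbouring genes were named after their values were seen. The comparison and 51 lists were chosen with earlier results of these data known, and 3 lists were added after the calls were seen; none was tested as a set. Positions and exonic lengths came from GENCODE M1 (mm9), matched by symbol for 20561 of 24495 genes and by another name for 1692. Promoters are RefSeq, GRCm38.p6, a build other than that of the counts. Alternatives were RLE scaling, DESeq2 1.42.0, other filters and fold limits, all 12 libraries in 1 fit, a replicate block, length offsets, leaving out each library, and, added later, limma 3.58.1 voom with quality weights. Values of some genes are not reported here. Scripts were tested on simulated counts. Deviations of same-numbered replicates had correlations of −0.095 at Day 0, −0.15 at Day 2 and 0.19 at Day 4, so the numbers were not taken as pairs.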

Additional observations from a re-analysis of the deposited data

Results flagged for a closer look

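For 18 genes named above as called at Day 0, the difference between shCTSL and shSC itself differed between Day 0 and Day 4, by the edgeR test of Day 4 minus Day 0 over 8 libraries. These tests were not stable: 13 of the 18 calls ended when shSC Day 0 replicate 2 was left out and 12 when replicate 1 of that group was, 10 ended on leaving out shCTSL Day 4 replicate 2, and 8 on leaving out the Day 0 library of the same line and number. The differences of the Nodal antagonists moved by 1.83 for Lefty1 (SE 0.156, adjusted p = 0.000123, from −1.33 to 0.50) and by 1.52 for Lefty2 (SE 0.122, adjusted p = 0.000115, from −1.22 to 0.30), and at Day 4 neither was called (adjusted p = 0.0183 and 0.119 by edgeR). All of these genes were called at Day 0 and the test uses the same Day 0 libraries, so moves towards 0 are favoured by the choice. Egr1 moved by 2.22 (SE 0.245, adjusted p = 0.00117, from −2.32 to −0.10). Ctsl itself moved by 1.06 (SE 0.115, adjusted p = 0.00117, from −1.87 to −0.81), so the reduction of the target was smaller at Day 4.

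Among the other Day 0 reductions, the test gave 1.46 for Rpl10l (adjusted p = 0.000276), 1.27 for Rpl39l (0.0263), 0.92 for Rps2 (0.0425), 1.67 for Fmr1nb (0.0145), 2.04 for Rhox9 (0.0373), 2.78 for Nsg2 (0.0223), 1.25 for Col13a1 (0.0408) and 1.19 for Shisa2 (0.0216), each figure in brackets an adjusted p of that edgeR test. It gave 0.93 for Esrp1 (0.0263), 0.73 for Gldc (0.0145), 0.63 for Klhl13 (0.0145) and 0.64 for Elmo1 (0.0463). The same test gave negative values for Plagl1, at −1.78 (SE 0.246, adjusted p = 0.00763, from 0.84 to −0.93), and Pde10a, at −2.62 (SE 0.484, adjusted p = 0.0263, from 1.83 to −0.78). Why any of these differ between the days was not tested. No group had the 4 libraries that a check for a single outlying library needs.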

How the results depend on the processing

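The Day 0 count of 269 (75.8% lower) was 274 with RLE scaling, 374 without a filter, 261 at 1 CPM or more, 297 with length offsets, 300 with a replicate block and 261 with voom quality weights (added after the data were seen). It was 128 with DESeq2 (25 higher, 103 lower), 6 with all 12 libraries in the fit (1127 at an unadjusted p under 0.05), 1287 with no fold limit (59.1% lower), 29 at a log2 change of 1.5 or more, and 714 by an unadjusted p under 0.05 with a log2 change over 0.5 (65.5% lower). Leaving out 1 library gave 221 (without shSC replicate 1) to 408 (without shCTSL replicate 2). The median over all genes moved by less than 0.1 with RLE scaling (−0.00037).

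The Day 4 count of 711 became 436 with DESeq2, 2 with 12 libraries, 2192 with no fold limit, 56 at the stricter limit, 1587 by the unadjusted rule and 461 with length offsets, and 74 (without shCTSL replicate 2) to 1177 (without shSC replicate 2) with 1 library out; it was 926 with a replicate block. The Day 4 minus Day 0 count of 149 became 499 without a filter, 1 with 12 libraries, 24 at the stricter limit and 1321 by the unadjusted rule, and 8 (without shSC Day 0 replicate 2) to 498 (without shCTSL Day 4 replicate 1); it also moved by over 1.5 times without shSC Day 0 replicate 1 (15), shCTSL Day 4 replicate 2 (20), shCTSL Day 0 replicate 2 (24), shSC Day 4 replicate 1 (52) or shSC Day 4 replicate 2 (325). It was 177 with a replicate block. The causes were not tested, beyond the fold limits and p rules changing what is counted.

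Replicate numbers were not shown to pair libraries, and the block ended 10 of the 269 Day 0 calls. Over the 287 genes followed singly at Day 0, called or not, the block ended 2 calls and added 2, DESeq2 ended 49 and added 1, the 12-library fit ended 85, and length offsets ended 3 and added 4. Zfp809, not called at −0.13, went from −0.31 (without shCTSL replicate 2) to 0.064 (without shCTSL replicate 1), the only sign change among single genes. Depth limits genes of a few CPM, in which most calls lie.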

Other observations

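Basement membrane genes went both ways, with Col4a1 (0.32) and Col4a2 (0.51) higher in shCTSL and Col18a1 (−0.28) and Lama5 (−0.43) lower at an adjusted p under 0.05; of these, Lama5 alone kept it whichever library was left out. Among 48 zinc finger genes, Zfp979 (0.52), Zfp944 (0.40), Zfp961 (0.31) and Zfp985 (0.26) were higher beside the called Zfp943, and Zfp979 alone of the 5 kept the threshold in the same way. Of 30 actin contractile genes, 6 were higher and 3 lower, and Cald1 alone of the 9 kept it. These genes were chosen after their values were seen.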
